A study of Drosophila melanogaster with 2 samples.

Results

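The peaks described here are those of the Drosophila melanogaster transcription factor Gcm on chromosome 4 and in the assembled pericentromeric sequence of arms 2L, 3L, 3R and X. They were chosen by position alone. A peak of the list called on both replicates together, the pooled list, was a member when its summit lay on chromosome 4, on 2L past 22000000, on 3L past 22900000, on 3R before 4200000 or on X past 22600000 (build dm6). This gave 191 of the 30000 pooled peaks, 0.637%. Chromosome 4 held 131 of them and the pericentromeric parts held 60, of which 13 were on 2L, 16 on 3L, 3 on 3R and 28 on X. The rest of the same 4 arms, with 24303 peaks, served as the comparison.

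Chromatin immunoprecipitation followed by sequencing was done on whole embryos of the line gcm-GFP, in which Gcm carries GFP at its C-terminus, with an antibody against GFP. Embryos of both sexes were pooled and were 0 to 16 hours old, so a list mixes all tissues and many stages, and chromatin was sheared by sonication. There were 2 biological replicates, numbered 1 and 3 and with a single donor label, and no other genotype or treatment. The deposited lists were 1 per replicate, the pooled list, and a list thresholded on the irreproducible discovery rate (IDR). This rate scores how well the rank of a peak repeats between lists. A peak kept by that threshold need not overlap a peak of each replicate's own list. In the rest of the arms 51 of 4598 kept peaks lacked such an overlap in a replicate.

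Gcm, glial cells missing, is a zinc-dependent DNA-binding protein that switches neural precursors to the glial fate in the fly embryo and also acts in embryonic blood cells. Chromosome 4, the dot chromosome, is a small chromosome in which active genes are interspersed with repeats and chromatin that carries heterochromatin protein HP1a and methylated H3K9, and its genes are also coated by the protein POF. Pericentromeric heterochromatin flanks the centromeres, is rich in transposable elements and satellites, and still holds single-copy genes, some of which need this setting for their expression.

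The word that Gcm recognises was searched on both strands within 100 bp of each summit, as ATGCGGGT, ATGCGGGC, ATACGGGT or ATACGGGC. It was found at 11 members, 8 on chromosome 4 and 3 in the pericentromeric parts, against a background of 4.77% of all pooled summits. The 9 of them in which the window shown has no untranslated region are printed below because they show the word in its place within these regions. Each runs 5′ to 3′ on the plus strand of the RefSeq Release 6 assembly (dm6), with the word in capitals. Where the word lies on the minus strand, its reverse complement is in capitals.
zfh2 intron, chr4:507820-507867: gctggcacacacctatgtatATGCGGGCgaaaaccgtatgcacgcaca
zfh2 intron, chr4:506899-506946: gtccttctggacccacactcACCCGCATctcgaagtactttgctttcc
zfh2 intron, in a transposable element, chr4:520446-520493: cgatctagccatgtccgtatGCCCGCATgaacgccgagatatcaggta
dati upstream, chr4:401987-402034: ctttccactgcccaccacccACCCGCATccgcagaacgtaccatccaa
Asator upstream, chr4:494175-494222: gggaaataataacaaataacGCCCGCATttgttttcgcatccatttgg
pan intron, chr4:71859-71906: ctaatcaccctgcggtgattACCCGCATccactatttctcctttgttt
Mes2 promoter, chr3L:22945540-22945587: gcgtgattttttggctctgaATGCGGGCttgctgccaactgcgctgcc
zyd intron, chrX:23026370-23026417: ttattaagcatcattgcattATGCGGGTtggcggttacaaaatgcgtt
Cda4 upstream, chrX:22660345-22660392: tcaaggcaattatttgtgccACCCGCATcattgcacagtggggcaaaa

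The other two words, at the zfh2 promoter and in the 3' end of onecut, read ATGCGGGT. Members thus held ATGCGGGT or ATGCGGGC, and neither ATACGGGT nor ATACGGGC was found within 100 bp of their summits.

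The highest member of all had no Gcm word. It is printed for contrast with the zfh2 peaks above, and the 81 bases shown hold no word that was searched, although GAGA and GATA words, given with the other words at the end, lie further out within 100 bp of its summit.
zfh2 upstream, chr4:497872-497952: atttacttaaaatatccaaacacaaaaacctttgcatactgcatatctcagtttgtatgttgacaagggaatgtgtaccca

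Peaks were sparser in all 5 regions than in the rest of the arms. Chromosome 4 held 98.4 peaks per Mb against 255.0 in the rest, a ratio of 0.386 (95% interval 0.323 to 0.458, exact conditional binomial test of 2 rates, two-sided, Benjamini-Hochberg adjusted over 5 regions, p = 1.13e-37). The replicates' own lists gave 107.4 and 106.7 per Mb, and a ratio of 0.420 ± 0.00303 (SD, n = 2). The pericentromeric parts together held 5.12 per Mb, a ratio of 0.0201 (0.0153 to 0.0258), and the replicates 0.0229 ± 0.000761 (SD, n = 2). This ratio depends on the limits, and was 0.0609 with all 4 moved 200 kb away from the centromere and 0.00903 with them moved as far towards it. Chromosome 4 thus lay between pericentromeric sequence and the rest of the arms in each list.

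The 4 pericentromeric parts differed among themselves. Within the limits of the rule X was the densest, with 29.8 peaks per Mb and a ratio of 0.117 (0.0776 to 0.169, exact binomial adjusted p = 8.61e-67). On 2L the density was 8.59 per Mb, a ratio of 0.0337 (0.0179 to 0.0576, exact binomial adjusted p = 1.03e-142). On 3L it was 3.14 per Mb, a ratio of 0.0123 (0.00703 to 0.0200). The lowest was 3R, with 0.718 per Mb and a ratio of 0.00282 (0.000581 to 0.00824). For 3L and 3R the p lay below the smallest value that could be computed. The interval of X lies above that of 2L, whereas those of 2L and 3L overlap, as do those of 3L and 3R. With the limits 200 kb further from the centromere this order did not hold, since 2L was at 0.148 (0.114 to 0.189) and X at 0.123 (0.0864 to 0.171), while 3L was at 0.0406 and 3R at 0.0349. With the limits 200 kb nearer to it X was at 0.133 and the other parts held no peak. Against their own arms the ratios were 0.0351 on 2L, 0.0106 on 3L, 0.00298 on 3R and 0.124 on X. The test counts peaks as independent, which they are not, since many summits lay within 1000 bp of another. This held for 72.5% on chromosome 4 (interval 64.0 to 80.0), 41.7% in the pericentromeric parts (29.1 to 55.1) and 68.9% in the rest. The test gives counting error only, and says nothing of the spread between flies.

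**Figure D1:**
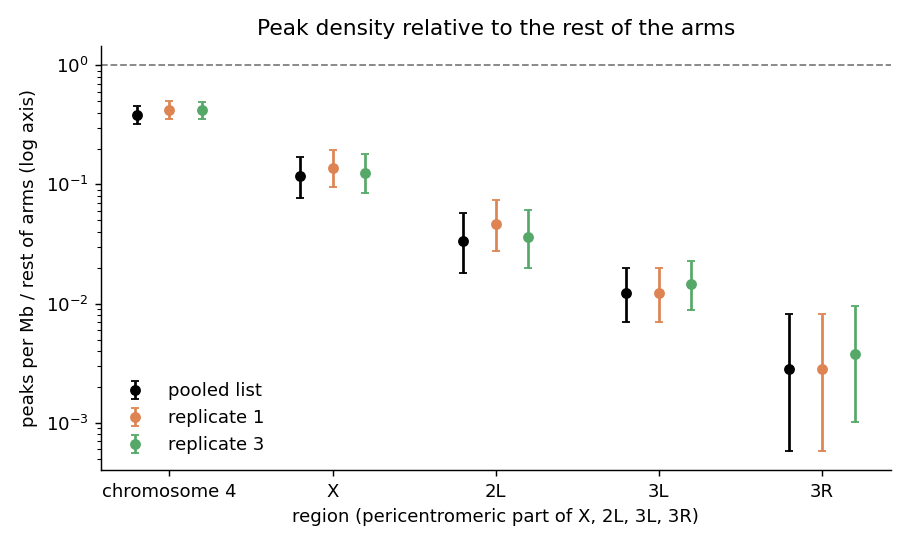
Peaks per Mb of each region divided by that of the rest of arms 2L, 3L, 3R and X (log axis), for the pooled list and each replicate's own list, with exact 95% intervals. Chromosome 4 lies near 0.4 in all 3 lists, and the pericentromeric parts fall from X to 3R at the limits of the rule.

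The regions also differed in sequence. A base was counted as unique when the 32-base word that starts there occurs once in the assembly. Unique words made up 83.3% of chromosome 4, 40.2% of the pericentromeric parts and 94.3% of the rest. Within the pericentromere X had the highest share, 52.0%, then 2L with 49.2%, 3L with 40.3% and 3R with 34.2%, the same order as peak density at the limits of the rule. Genes were fewer as well, with 60.1 protein-coding genes per Mb on chromosome 4, 9.89 in the pericentromeric parts and 114 in the rest.

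Set against unique sequence, the densities stayed lower. Chromosome 4 had 117 peaks per Mb of unique sequence, the pericentromeric parts 12.6 and the rest 270.1. Per protein-coding gene the values were 1.64, 0.517 and 2.23 peaks. Bins of 100 kb with a like share of unique words were then compared. Of bins with 30 to 60% unique words, the 7 in the rest of the arms held 65 peaks, 181 per unique Mb, and the 59 pericentromeric bins held none. Chromosome 4 had 2 such bins, 1 of them empty, with 189 per unique Mb, so there it was not below the rest. With 60 to 90% unique words, the rest had 229 per unique Mb in 119 bins and the pericentromere 14.1 in 12 bins, of which 10 were empty. Chromosome 4 had 94.1 in 4 bins of that class. In the most unique class, from 90%, the rest had 276, chromosome 4 had 117 in 7 bins and the pericentromere had 97.3 in 5. Under 30%, the 41 pericentromeric bins were all empty, as were 9 of the 11 bins in the rest. The part that mapping plays in the density was not tested beyond these bins, as the files hold no read depth.

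**Figure D2:**
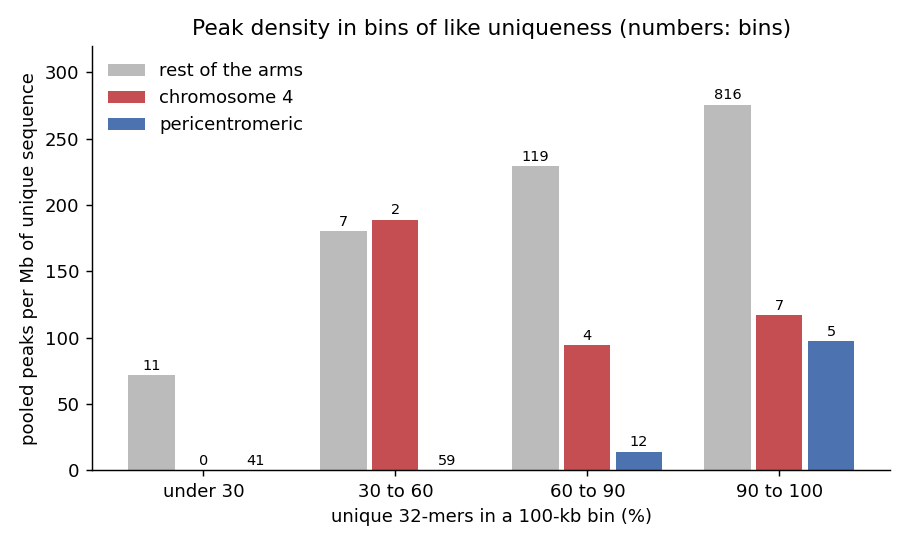
Pooled peaks per Mb of unique sequence in 100-kb bins, grouped by the share of 32-base words that occur once, for the rest of the arms, chromosome 4 and the pericentromeric parts, with the number of bins above each bar. The pericentromeric bars are at 0 in both classes under 60%, where the 7 bins of the rest with 30 to 60% reach 181.

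On each arm the peaks ended at a point that the lists shared closely. The innermost pooled summit lay at 22146448 on 2L, 22960527 on 3L, 4179267 on 3R and 23096839 on X. Across the pooled list and the 2 replicate lists this last summit differed by 2344 bp on 2L, 436 bp on 3L, 2591 bp on 3R and 5 bp on X. From there to the end of the assembled arm each list was empty. These empty stretches were 1367 kb on 2L, 5150 kb on 3L, 4179 kb on 3R and 445 kb on X, together 11.1 Mb or 93.9% of the pericentromeric sequence. They hold 4.15 Mb of unique words, and they have no peak because they were drawn from the last one. The outer strips that do hold peaks were short, and their densities of 88.8 per Mb on 2L, 264 on 3L, 145 on 3R and 56.4 on X were computed to the last peak, which raises them.

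Elsewhere on these arms peak-free runs were shorter, except next to the X limit. The longest was 360 kb on 2L, 232 kb on 3L and 417 kb on 3R. On X it was 812 kb, just outside the limit, where only 12.6% of words were unique. The 1000 kb outside the X limit held 13 peaks per Mb, fewer than the 31.1 per Mb of the 900 kb inside it. On 2L the outer 1000 kb had 163 per Mb and the inner 13, on 3L 280 and 16, and on 3R 342 and 3. The sources used here do not give whether peaks in heterochromatin were removed before deposit.

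**Figure D3:**
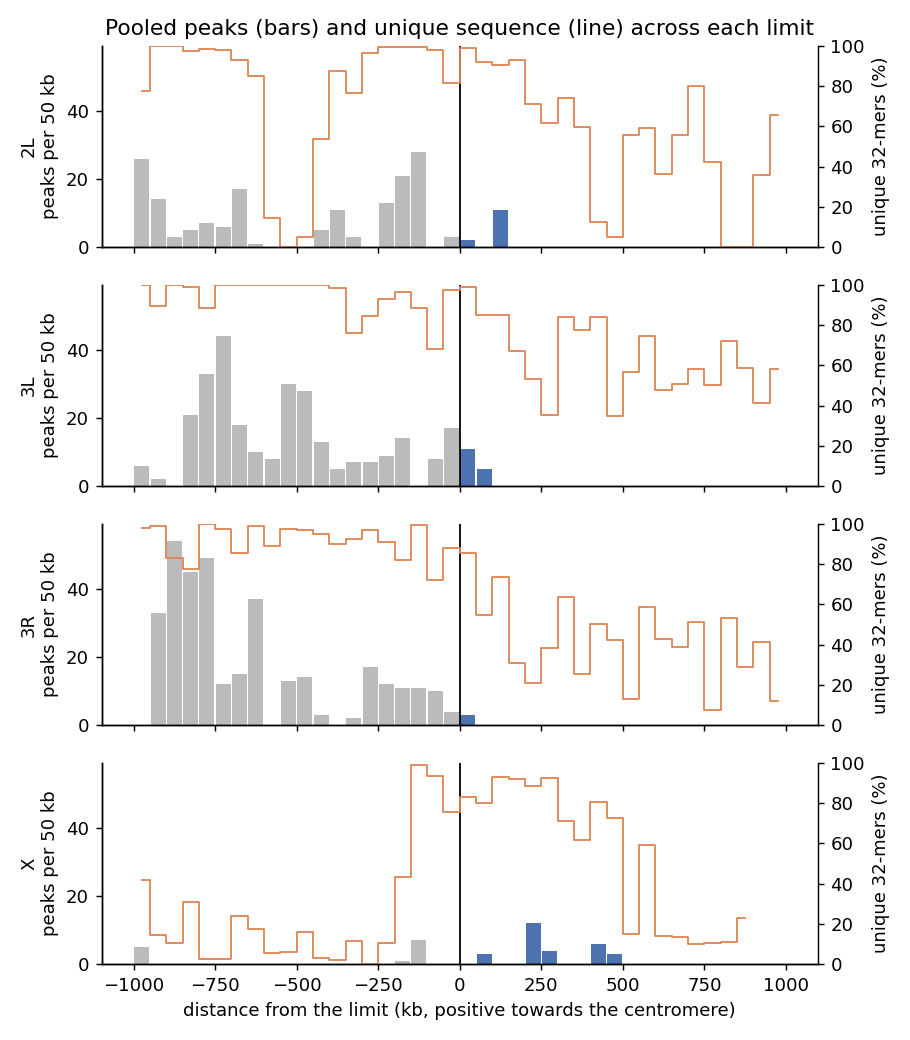
Pooled peaks per 50 kb (bars, grey outside and blue inside the limit) and the percent of unique 32-base words (line, right axis) within 1000 kb of the limit on 2L, 3L, 3R and X, with distance in kb and positive values towards the centromere. The last pooled summit lies 146 kb inside the limit on 2L, 60.5 kb on 3L, 20.7 kb on 3R and 497 kb on X, and unique words continue beyond it.

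The limits themselves cut through no peak cluster. The first summit inside and the last one outside were 19.9 and 25.01 kb from the limit on 2L, with signals of 98.2 and 47.2. They were 10.1 and 10.95 kb away on 3L (signals 135 and 102), 12.8 and 14.2 kb on 3R (100.1 and 262), and 57.2 and 111 kb on X (128 and 180).

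The empty stretches, drawn to hold no peak, contain 72 protein-coding genes. Among the listed ones are lt, a lysosomal trafficking gene on 2L, cta, which encodes a G protein subunit used in gastrulation, AGO3, an Argonaute of the piRNA pathway, Snap25, a synaptic fusion gene, vtd, a cohesin subunit, nvd and spok, both of ecdysone synthesis, and Myo81F, a myosin gene that spans 1966 kb. Of the 24 genes on the pericentromeric list that lie in the regions, 4 had a summit in the body or up to 2000 bp upstream, 16.7% (exact 95% interval 4.74 to 37.4), all on X, against a background of 51.2% of all protein-coding genes. Ribosomal protein genes were picked out after their values were seen. RpL5 and RpL21 on 2L and RpL10 and RpL15 on 3L all lie in these empty stretches. They had no peak in the pooled list, as the stretches were drawn to hold none, nor in either replicate's list. Outside the regions 62 of 66 such genes had a pooled summit, 93.9% (exact 95% interval 85.2 to 98.3), and RpS3A, the sole one on chromosome 4, had a promoter peak. With 4 genes, a count of 0 allows a share of up to 60.2% by the exact interval. This count restates that the stretches are empty and adds no separate comparison.

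Where peaks were present, their heights overlapped those of other peaks. The signal, a height given by the authors' peak caller on a scale that differs between lists, had a median of 89.0 on chromosome 4 (quartiles 62.7 and 150.1), 75.5 in the pericentromeric parts (51.4 and 116) and 84.6 in the rest (54.3 and 154). Relative to the rest of its own list, the chromosome 4 median was 1.05 in the pooled list, 0.977 in replicate 1 and 1.11 in replicate 3. The replicates thus lay on opposite sides of 1. The pericentromeric median was 0.892 of the rest in the pooled list, 0.842 in replicate 1 and 0.829 in replicate 3, lower each time.

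The IDR-thresholded list holds 19.0% of all pooled peaks and kept 29 members. These were 22 of 131 on chromosome 4, 16.8% (exact 95% interval 10.8 to 24.3), and 7 of 60 in the pericentromeric parts, 11.7% (4.82 to 22.6), against 18.9% in the rest. Both intervals include the share of the rest. By this list the density ratio was 0.343 on chromosome 4 (0.214 to 0.519) and 0.0124 in the pericentromere, so peaks were also sparser there in the stricter list.

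A pooled peak overlapped a peak of both replicates in 84.0% of chromosome 4 members (110 of 131, interval 76.5 to 89.8), 70.0% of pericentromeric ones (42 of 60, 56.8 to 81.2) and 79.1% of the rest. Heights were compared where the match in each replicate served no other pooled peak. Spearman's rho between replicates was 0.654 over 68 peaks of chromosome 4, 0.696 over 35 pericentromeric peaks and 0.775 over 13284 of the rest. These peaks share libraries, and the values describe them without a test. Replicate 1 gave the higher number in 44 of the 68, 23 of the 35 and 9435 of the 13284, on scales that differ between the lists.

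**Figure D4:**
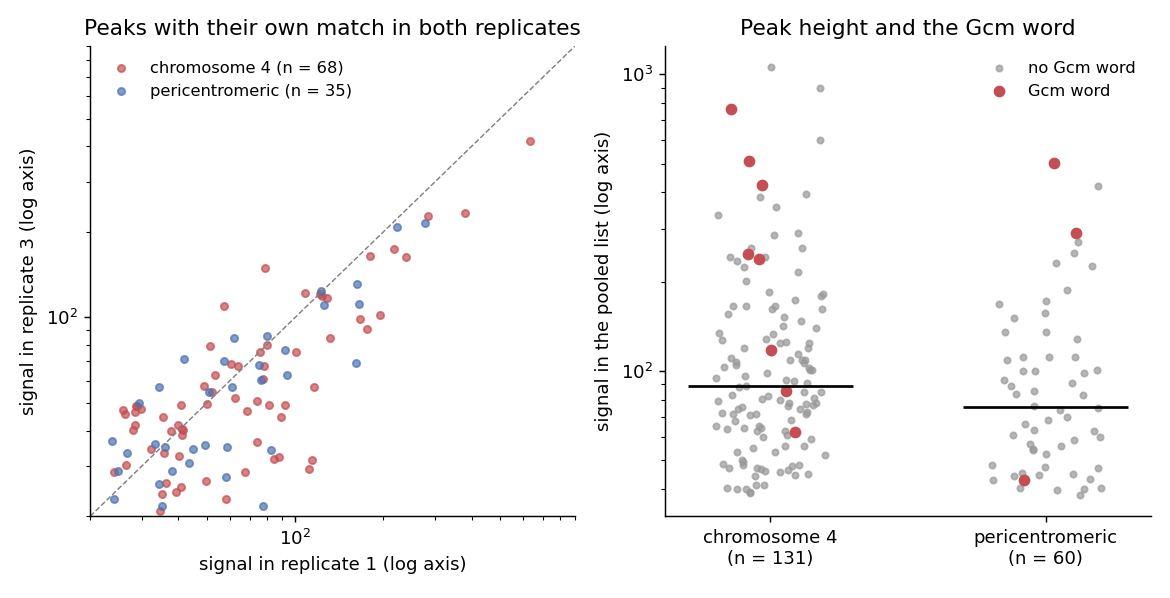
Left, signal in replicates 1 and 3 (log axes) of the 68 chromosome 4 and 35 pericentromeric peaks with a match of their own in each replicate, with the line of equality, on scales that differ between the lists. Right, signal in the pooled list (log axis) of all 191 members, with those that carry a Gcm word within 100 bp of the summit in red and medians of 89.0 and 75.5 as bars. The 11 red points run from 42.9 to 764.

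The highest members gathered around zfh2, which encodes a zinc-finger homeodomain protein. Its upstream peak (chromosome 4, 497716 to 498085, intergenic, -3898 bp from the transcription start site, TSS, with negative values upstream) had a signal of 1056 in the pooled list, 632 in replicate 1 and 416 in replicate 3, and ranked 218 of 30000. The first intronic peak, which carries a printed word, had 764, 467 and 295. The promoter peak, -33 bp from the TSS, had 512, 283 and 227. All 3 were far above the member median of 85.1 in the pooled list.

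A further intronic zfh2 peak with the word had 422 in the pooled list, 260 in replicate 1 and 197 in replicate 3. The body of zfh2 and its 2000 bp upstream held 16 summits, the most on chromosome 4, and 22 members had zfh2 as the nearest TSS. The 50-kb bins either side of 500 kb held 20 and 16 pooled peaks, and the bin from 50 to 100 kb, with ci, RpS3A and pan, held 17. Those from 200 to 350 kb held 0 in the pooled list. In each replicate's own list the bin from 300 to 350 kb held 3.

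The second highest member had a match in the list of replicate 3 only. It lay in the 3' UTR of Cals, which encodes calsyntenin, a cadherin-family protein of neurons (1113123 to 1113491), with a signal of 899.7 in the pooled list and 429 in replicate 3, where it ranked 265. The list of replicate 1 had no peak that overlapped it, although the IDR-thresholded list kept it. Whether replicate 1 had signal there cannot be told from the lists. Among the 39 members that lacked a match in a replicate, the next highest had a signal of only 102. Of IDR-thresholded peaks, 1 of 22 on chromosome 4 and 51 of 4598 in the rest (1.11%) lacked an overlapping peak in a replicate.

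The reverse also occurred. Of the replicate 1 peaks on chromosome 4 that replicate 3 also held, 9 of 118 were missing from the pooled list, 7.63% (interval 3.55 to 13.99), against 2.34% (2.14 to 2.57) in the rest and 1 of 48 in the pericentromeric parts. The 9 included peaks near Zip102B, dati, sv, Rnf11, Asator and gw. Why a list lacks such a peak was not tested.

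Genes were called bound by the rule given above for a summit. On chromosome 4, 31 of 80 protein-coding genes were bound, 38.8% (interval 28.1 to 50.3), and 15 of 116 in the pericentromeric parts, 12.9% (7.42 to 20.4), against 51.2% of all 13945 genes. The chromosome 4 interval ends below that background share, although its genes are longer, with a median of 10.1 kb against 2.16 kb in the rest. That does not hold in the replicates' own lists, which gave 34 and 35 bound genes on chromosome 4, or 42.5% (31.5 to 54.1) and 43.8% (32.7 to 55.3), intervals that include their backgrounds of 54.0% and 53.1%. In what follows, values of a gene are those of its highest peak in each list, which need not be the same peak.

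Transcriptional regulators of chromosome 4 had 8 of 15 bound, 53.3%, near the background of 51.2%. After zfh2 the highest was ey, a Pax6 gene of eye development, whose 11 summits reached 291 in the pooled list, 196 in replicate 1 and 122 in replicate 3. That highest peak lies nearest the TSS of its neighbour myo, at -711 bp, and the highest one nearest ey had 234. At ci, the effector of Hedgehog signalling, 6 summits were led by a promoter peak with 287, 194 and 102. The 2 peaks of Sox102F, a Sox factor gene, that passed the IDR threshold had pooled signals of 259 and 242, and both lay at promoters.

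The 3' UTR peak of onecut, a homeodomain gene, carried the word and had 247 in the pooled list, 123 in replicate 1 and 119 in replicate 3. At pan, the TCF factor of Wnt signalling, 6 summits were led by 201, 132 and 84.6. The Pax gene sv reached 165, 57.1 and 109. Peaks near dati, a zinc-finger gene, reached 357 at -8895 bp and 238 at -6430 bp, the latter with the word, while the 3 summits within the gene or 2000 bp upstream stayed at or below 127. Of the 7 regulators with no pooled summit, toy, the other Pax6 gene, had 3 in replicate 3 alone, the highest at 95.01. Mitf had 1 of 145 in replicate 1 alone. A pooled member of 44.2 lay nearest the TSS of toy, but outside its body and the 2000 bp upstream. A member 19066 bp from the TSS of lgs, the BCL9 homologue of Wnt signalling, had 602, 378 and 232, yet lgs itself held none.

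Signalling and neuronal genes had 5 of 16 bound, 31.3%, with an interval of 11.02 to 58.7 that includes the background. Beside Cals these were myo, a TGF-beta family ligand gene (291, 196 and 90.7 in the pooled list, replicate 1 and replicate 3), and PlexA, a semaphorin receptor gene (242, 128 and 117). PlexB, the other plexin gene, reached 161, 80.4 and 79.8, and Zyx, which encodes zyxin of cell adhesions, 102, 61.4 and 25.2. The unbound ones were in part bound in a single replicate. The receptor gene mGluR reached 86.9 and the ligand gene mav 75.7 in replicate 3 and had no peak in replicate 1.

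Housekeeping and muscle genes had 5 of 8 bound, 62.5%, with an interval of 24.5 to 91.5 that includes the background of 51.2%. The RpS3A promoter peak, 5 bp from the TSS, had 385 in the pooled list, 217 in replicate 1 and 174 in replicate 3. The peak assigned to gw, a microRNA silencing gene, had 394, 239 and 162, and is shared with the adjacent genes CG46466 and Slip1. ATPsynbeta, a subunit of the mitochondrial ATP synthase, had 148, 114 and 31.6. Pur-alpha, a nucleic acid-binding protein gene, had 71.5, 44.0 and 60.3, and the ankyrin gene Ank had a single peak of 46.1 that neither replicate's list contained. The muscle gene bt held none. Peaks of ATPsynbeta, Pur-alpha, Zyx and Ank also count for overlapping or adjacent genes, namely CG11076 and Mpv17, Tdg, apolpp and anne.

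Other genes of chromosome 4 outside these lists stood as high. Asator, a kinase gene, had 9 summits up to 259 in the pooled list, 166 in replicate 1 and 149 in replicate 3. The peak at -4417 bp from fuss, a SKI family gene, had 334, 203 and 143, and the promoter peak of the kinase gene CaMKII had 224, 114 and 105.

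**Figure D5:**
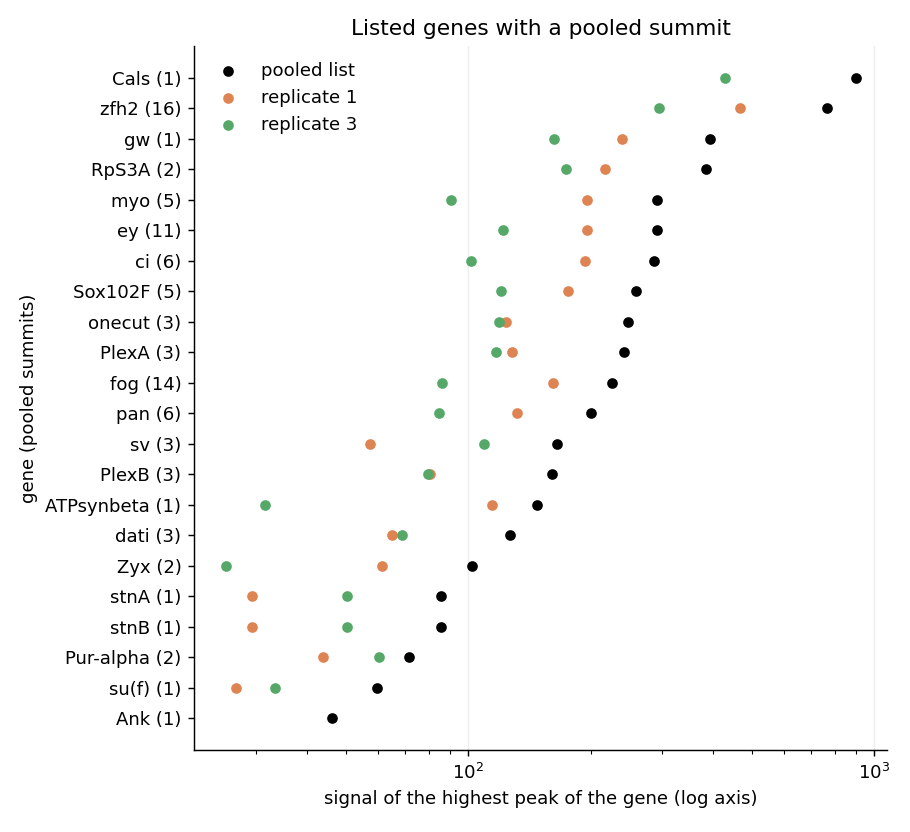
Signal of the highest peak (log axis) in the pooled list, replicate 1 and replicate 3 for each listed gene with a pooled summit, with the number of pooled summits in brackets. Cals has no point for replicate 1 and Ank none for either replicate. The genes stnA and stnB share 1 peak.

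In the pericentromeric parts the highest member lay at Mes2, a MADF-domain gene expressed in mesoderm, on 3L. Its promoter peak (22945361 to 22945713, -119 bp from the TSS) carried the word printed above and had 504 in the pooled list, 277 in replicate 1 and 215 in replicate 3. Mes2 was the nearest TSS of 9 members, 3 of them in the IDR-thresholded list, with pooled signals of 272 and 250 for the other two. Thus 9 of the 16 members on 3L lay nearest this gene, and CG12768 had 3 summits up to 136.

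On 2L the peak in the 3' UTR of tio, a zinc-finger gene, had 420 in the pooled list, 223 in replicate 1 and 208 in replicate 3. It was alone in height, since the next on 2L were at CG3651, with 111, and at CG42748, which had 9 summits up to 109. On 3R, CG12581 had 2 summits of 111 and 42.9, and the third peak lay 3057 bp from the neuropeptide gene Dsk, with 100.1. The 3R members were found in both replicates in 1 case of 3.

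On X, 9 of 23 genes were bound, 39.1%, with an interval of 19.7 to 61.5 that includes the background of 51.2%. The highest peak lay in an intron of zyd, which encodes a sodium/calcium exchanger that acts in glia. It carried the word and had 291 in the pooled list, 163 in replicate 1 and 131 in replicate 3. A peak -48475 bp from Cda4, a chitin deacetylase gene, had 231, 125 and 110. The secreted gastrulation ligand gene fog had 14 summits and CG42346 had 10, but these genes overlap and share peaks, the highest with 226, 161 and 86.0 in the pooled list, replicate 1 and replicate 3. The synaptic vesicle genes stnA and stnB, which share a transcript, had 1 peak of 85.5, and su(f), of mRNA 3' end formation, had 59.6.

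Summits on chromosome 4 lay more in intergenic sequence than the rest, but less clearly so in the stricter list. Intergenic summits made up 46.6% of its members (61 of 131, interval 37.8 to 55.5) and 25.7% of the rest. The shares were 37.8% (29.8 to 46.2) against 24.3% in replicate 1 and 39.4% (31.3 to 48.0) against 25.7% in replicate 3. In the IDR-thresholded list the share was 31.8%, with an interval of 13.9 to 54.9 that includes the 19.4% of its rest. In the pooled list introns held 25.2% (18.0 to 33.5) against 45.0%. Promoters, within 500 bp of a TSS, held 24.4% on chromosome 4, 23.3% in the pericentromeric parts and 24.3% in the rest. In the pericentromere introns held 38.3% (26.1 to 51.8) and intergenic sequence 23.3% (13.4 to 36.04), intervals that include the shares of the rest.

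Annotated transposable elements cover 24.8% of chromosome 4 and 4.07% of the rest. They held 12 of 131 summits on chromosome 4, 9.16% (interval 4.82 to 15.5), and 0.193% of summits in the rest. The 12 lay in 6 INE-1, 5 1360 and 1 S element, and 2 pericentromeric summits lay in INE-1 and gypsy12. Their signals ran from 38.1 to 394, and the INE-1 peak 493 bp from the TSS of CG46466 had the highest, with a fully unique window. Its sequence is shown because it is the highest member inside a transposable element.
CG46466 promoter, INE-1 element, chr4:662298-662378: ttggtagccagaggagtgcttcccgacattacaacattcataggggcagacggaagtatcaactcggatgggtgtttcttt

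The windows of 201 bp around members consisted wholly of unique words in 181 of 191 cases, and in 1 case of under 50% unique words, at ci in a 1360 element (47.3%). Member peaks therefore sat almost wholly in sequence that occurs once. This is not particular to them, since the median window of the rest was also 100% unique.

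The Gcm word lay at 4.77% of all pooled summits. It lay at 8 of 131 on chromosome 4, 6.11% (interval 2.67 to 11.7), and at 3 of 60 in the pericentromeric parts, 5.00% (1.04 to 13.9), both like the 4.75% of the rest. In the window 1000 bp to the left the shares were 1.53%, 1.67% and 1.00%, and in that to the right 3.05% on chromosome 4 and 0% in the pericentromeric parts. On chromosome 4 the interval of the left window, 0.185 to 5.41, overlaps that of the summits. The share of the right window there lies within the summit interval. Of all windows of the same length, 0.695% on chromosome 4, 0.820% in the pericentromere and 1.02% in the rest contain the word. The chromosome 4 intervals lie above the share of all its windows in the pooled list and in replicates 1 and 3, where 5.59% (2.45 to 10.7) and 4.93% (2.005 to 9.89) of summits had the word. In the pericentromere this rests on 3 summits and does not hold in replicate 1, whose 2.86% (0.348 to 9.94) includes the share of all windows.

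The members with the word were mostly high. Their pooled signals ran from 42.9 to 764 with a median of 247, and 7 of the 11 were in the IDR-thresholded list, where they made up 24.1% of 29 members (interval 10.3 to 43.5) against 9.85% (9.01 to 10.8) of IDR-thresholded peaks in the rest. Among the other 162 members 2.47% had it (0.677 to 6.20), and 3.56% in the rest. Of the 11 words, 4 lay at zfh2. The centre of the word was between -29 and 71 bp from the summit.

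Other words gave a mixed picture. The GATA words AGATAA or AGATAG or TGATAA or TGATAG lay at 26.0% of chromosome 4 summits (interval 18.7 to 34.3) and at 40.5% of their left flanks (31.98 to 49.4), whereas in the rest they lay at 34.3% of summits and 31.1% of flanks. The chromosome 4 intervals overlap, and in replicate 1 its shares were 33.6% of summits and 34.97% of flanks. All chromosome 4 windows have them in 37.0% of cases. The GAGA word GAGAG lay at 27.5% of chromosome 4 summits and 19.8% of flanks, and at 31.7% and 25.0% in the pericentromeric parts, with overlapping intervals. Of all windows, 17.4% on chromosome 4, 22.5% in the pericentromere and 21.3% in the rest contain it. The DRE word TATCGATA, found at many fly promoters, lay at 4 summits of chromosome 4, 3.05%, and at 2.29% of their left flanks. In replicate 1 it lay at 1 of 143 chromosome 4 summits, 0.699%. None of the 60 pericentromeric summits had it, which allows up to 5.96% by the exact interval, and 1.49% of summits in the rest did. Of all windows, 1.98% on chromosome 4, 0.816% in the pericentromere and 0.507% in the rest contain it. Words of different kinds were counted separately, also where their bases overlapped.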

How the data were processed

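The authors deposited peak lists of Gcm-GFP chromatin immunoprecipitation on build dm6, 1 per replicate, 1 pooled and 1 IDR-thresholded, per the file descriptions. Neither aligner, peak caller, versions, IDR threshold nor read depth is given in the labels or headers used. The signal of each peak was set by the authors' caller, as deposited, and its scale differs between lists, so levels were related to the rest of the same list and replicates were compared by rank or side by side. The deposited −log10 q-value and the p-value column were not used. Summits are 1-based. Genes came from Ensembl release 115 (BDGP 6.54), transposable elements from the RefSeq gene table, and sequence from the RefSeq Release 6 assembly. Shares carry exact Clopper-Pearson 95% intervals, which cover counting error only. Density was tested by an exact conditional binomial test, checked on simulated counts of independent peaks. That check does not cover peaks that cluster, as these do. Peaks were matched when they overlapped by at least 1 bp. Density used length without undetermined bases. Arm 2R and the unplaced sequences were outside the comparison. Of 27 pericentromeric genes listed, 24 lie in the regions. The members, the 4 gene lists and the settings were chosen with earlier results of these data known. Named genes were the nearest to the 10 highest members and to the 5 highest of each region, listed genes with a summit and the 5 with most summits, and other genes were named after their values were seen. Alternatives were other promoter, word and upstream distances, other overlap rules, the stricter list, shifted limits and each replicate alone. Python 3.11.15, numpy 2.4.6, pandas 2.3.3, scipy 1.17.1 and matplotlib 3.10.9 were used.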

Additional observations from a re-analysis of the deposited data

How the results depend on the processing

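The density ratios stayed below 1 and on the same side of the threshold under every alternative run, but their size did not stay within its interval. Per protein-coding gene the ratio was 0.734 on chromosome 4 and 0.232 in the pericentromeric parts, and per unique length 0.0466 in the latter. Shifted limits gave the pericentromeric ratios 0.0609 and 0.00903. Of the shares and medians, those that moved by more than their error follow. With promoters drawn to 1000 bp, 38.2% of chromosome 4 summits lay at promoters in place of 24.4%. In the IDR-thresholded list the share was 40.9%, against 38.8% in the rest of that list. There the Gcm word lay at 22.7% of chromosome 4 summits and 28.6% of pericentromeric ones, against 9.85% in the rest. The intervals of 7.82 to 45.4 and 3.67 to 71.0 include that share. Bound genes in that list were 18.8% on chromosome 4 and 4.31% in the pericentromeric parts, against 28.2% of all protein-coding genes. The pericentromeric median signal was 0.906 of the rest. With 1 replicate left out that median was 0.829 to 0.842. With a reciprocal overlap of 50%, 68.7% of chromosome 4 peaks and 55% of pericentromeric ones were found in both replicates, and with summits within 100 bp 60.3% and 56.7%. The pericentromeric control window to the right held the word in 0% of cases. No paired analysis was possible because the samples form 1 group. Depth is unknown, the pericentromeric shares rest on 60 peaks, and the cause of these differences was not tested.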
